A study of Mus musculus with 6 samples.

Results

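The genes examined here are those of endothelial nitric oxide (NO) synthesis, *Nos3*, *Nosip*, *Nostrin*, *Cav1*, *Cav2*, *Ddah1*, *Ddah2*, *Gch1*, *Arg2* and *Ass1*. They were chosen by symbol for their roles, with earlier results of these data known. All 10 were found among the 20409 gene symbols of the table. The table comes from RNA-Seq of untreated lung endothelial cells (LECs) of the mouse, with 3 control and 3 *Atgl* ECKO libraries. Control LECs came from littermates called *Atgl* fl/fl (*Atgl* alleles flanked by loxP sites) in the paper's main text. Its cell culture methods call them wild type, and the labels read WT. *Atgl* ECKO LECs came from mice in which a Cre transgene under the *Cdh5* (VE-cadherin) promoter deletes loxP-flanked *Atgl* in endothelial cells. All cells were selected with antibodies to CD31, immortalized with the middle T antigen and grown in serum-containing medium, so they are immortalized cultures and not vessel endothelium. The paper states that only male mice were used in its experiments. Neither the labels nor the account of the cell isolation names an age for the animals the LECs came from. The labels number the libraries of each genotype from 1 to 3 and give no origin in separate cultures or animals. The p-values therefore describe the spread between these libraries alone, which may be technical.

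Endothelial NO synthase (eNOS), encoded by *Nos3*, makes NO and citrulline from arginine and needs tetrahydrobiopterin as a cofactor, and NO relaxes the smooth muscle of the vessel wall. Part of the enzyme sits in caveolae, flask-shaped pits of the plasma membrane that are built from caveolins and cavins, where binding to caveolin-1 holds its activity down. Its supply side includes GTP cyclohydrolase 1 (*Gch1*), which starts the synthesis of the cofactor, argininosuccinate synthase (*Ass1*), which returns citrulline to arginine, arginase 2 (*Arg2*), which competes for arginine, and the dimethylarginine dimethylaminohydrolases (*Ddah1*, *Ddah2*), which degrade methylated arginines that inhibit the enzyme.

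Values are CPM, a gene's reads scaled to the total of its library, and 1 CPM rested on 55.6 to 69.1 reads. Of all symbols, 12837 had a mean of at least 1 CPM over the 6 libraries and were tested with limma on log2(CPM + 1), with p-values adjusted by the Benjamini-Hochberg method over all of them. Calls were made at an adjusted p below 0.05, and the log2 fold change is *Atgl* ECKO minus control. *Pnpla2*, which encodes ATGL, had 27.6, 26.3 and 30.1 CPM in the control libraries and 9.97, 9.11 and 9.13 CPM in the *Atgl* ECKO libraries, and CPM over the whole gene does not separate its deleted part. All 13 endothelial markers were tested, and their summed level was 5721 to 5968 CPM in control and 5866 to 6261 CPM in *Atgl* ECKO LECs. Among them 5 were higher and 4 lower, with *Pecam1* at a log2 fold change of 0.29, *Cldn5* at 1.90 (from 29.02 to 111 CPM), *Vwf* at -1.35 and *Cdh5* at 0.08 (adjusted p = 0.04996). The call for *Cdh5* was lost in 10 of 16 alternatives, among them without control replicate 1 or 2 or *Atgl* ECKO replicate 1 or 2 (adjusted p of 0.126, 0.149, 0.176 and 0.129). Of 11 lung epithelial markers 7 were in the table, and 3 were tested and higher, with a sum over the list of 18.03 to 19.0 CPM in control and 42.3 to 44.7 CPM in *Atgl* ECKO LECs, nearly all from *Krt8* and *Krt18*, while *Epcam*, *Cdh1*, *Sftpb* and *Foxj1* were under 0.1 CPM on average in each genotype. The sum of the 4 leukocyte markers in the table (of 8, without *Ptprc*) was 20.4 to 23.3 CPM in control and 63.5 to 75.0 CPM in *Atgl* ECKO LECs, of which *Cd68*, a lysosomal protein gene, made up most, and 1 of 2 tested was higher. The sum of the 8 fibroblast, smooth muscle and pericyte markers in the table (of 10) was 10.9 to 12.2 and 16.5 to 18.3 CPM. Most of it came from *Cnn1* (means of 8.08 and 14.1 CPM), and 1 of 2 tested was higher (*Cnn1*). Below the filter, *Col1a1* (1.196 against 0.359 CPM), *Col1a2* (0.243 against 0.126) and *Col3a1* (0.454 against 0.0366) had lower means in *Atgl* ECKO LECs. *Pdgfrb* had a higher one (0.226 against 0.734 CPM), and the genotypes overlapped for *Pdgfra* and *Dcn*. The sum of 2 mesothelial markers (of 4) stayed under 0.2 CPM. The part of these marker differences in the results was not tested.

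Of the 10 genes, 9 passed the filter, and *Nos3*, *Nostrin*, *Cav1*, *Cav2*, *Gch1* and *Ass1* were higher in *Atgl* ECKO LECs, *Ddah1* and *Ddah2* were lower, and *Nosip* did not pass the test. The background of calls was high, since among all genes tested 34.2% passed as higher and 36.2% as lower (70.5% in either direction). With 8 of 9 genes called, the share of calls was thus of the same order as that of all genes, and the sizes and directions carry the description that follows. The same 6 and 2 genes had no overlap between the genotypes, which held for 35.3% (above) and 37.8% (below) of all tested genes, 73.1% in either direction. The median log2 fold change was 0.26 over the 9 genes and -0.01 over all tested genes, whose median absolute value was 0.21.

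**Figure D1:**
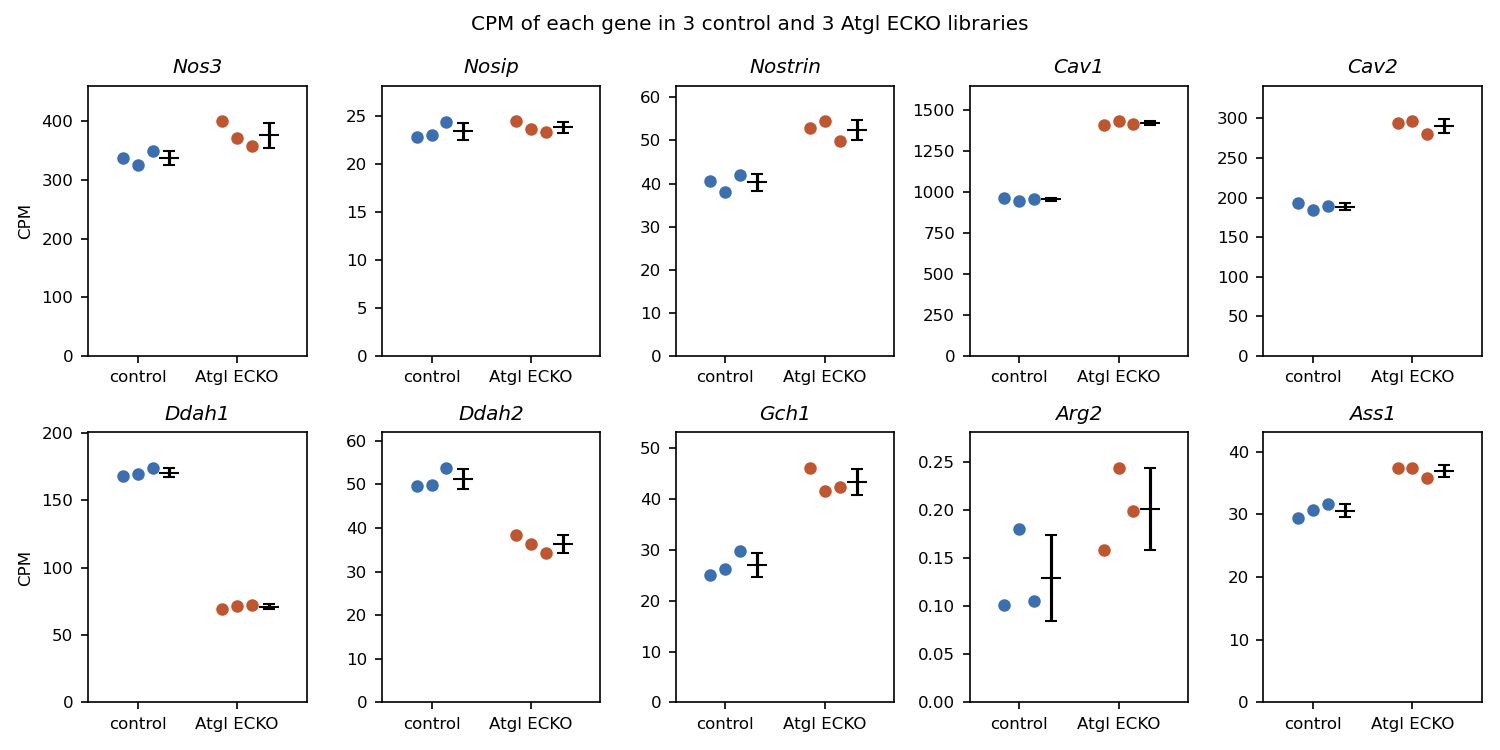
CPM (vertical axes, starting at 0) of each of the 10 genes in control (blue) and *Atgl* ECKO (orange) libraries, with a bar for the mean and SD of 3 libraries. *Ddah1* fell from a mean of 171 to 71.1 CPM and *Cav1* rose from 954 to 1416 CPM, while the genotypes overlapped for *Nosip* and *Arg2*.

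*Nos3*, the gene of the NO-forming enzyme itself, lies on chromosome 5 (GRCm38, 24364810 to 24384474, plus strand; Ensembl ENSMUSG00000028978). Its level was 338, 325 and 349.6 CPM in control replicates 1, 2 and 3, and 399.9, 371 and 358 CPM in *Atgl* ECKO replicates 1, 2 and 3. Every *Atgl* ECKO library was above every control library, but the gap between the nearest libraries was only 8.39 CPM, less than the SD of either genotype (12.5 and 21.5 CPM, n = 3 each). The mean rose by 11.5%, or by 0.16 on the log2 scale (standard error 0.04, 95% confidence interval 0.07 to 0.24, limma, adjusted p = 0.00251). An exact two-sided permutation test gave p = 0.1, the smallest that 3 libraries against 3 allow. Of all tested genes, 61.0% had an absolute log2 fold change at least as large. In bulk RNA, a change in how many cells express a gene and a change in its RNA per cell cannot be told apart.

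The call for *Nos3* was lost without moderation of the variances (adjusted p = 0.0755). Once the median change of the genes on its chromosome was removed (-0.09 on the log2 scale for chromosome 5), *Nos3* stood at 0.25. Such medians ran from -0.23 (chromosome 2) to 0.45 (chromosome 14) over the autosomes and X, and the 4 genes of chromosome Y had a median of -4.43, so a difference between the cell cultures and one between the genotypes cannot be told apart. In the GENCODE M21 annotation 2 genes of the opposite strand overlap exons of *Nos3*, and no source used here says whether the counting used strand, so reads there cannot be told apart. *Atg9b*, an autophagy gene, shares 294 bases at the 3' end and had 2.66, 3.14 and 3.17 CPM in control and 10.3, 9.99 and 10.9 CPM in *Atgl* ECKO LECs, with no overlap between the genotypes. The antisense gene *Gm15587* shares 1040 bases and had 9.26 ± 0.489 against 11.1 ± 0.909 CPM (control against *Atgl* ECKO, SD, 3 libraries each). The mean of *Nos3* differed by 38.8 CPM between the genotypes, against 7.41 CPM for *Atg9b* and 1.88 CPM for *Gm15587*. Of the other NO synthase genes, *Nos2* was below the filter, with 0.0359 ± 0.0220 against 0.185 ± 0.0429 CPM (control against *Atgl* ECKO, SD, 3 libraries each).

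The partners of eNOS in membrane traffic differed from each other. *Nostrin* (chromosome 2, 69135800 to 69189330, plus strand) encodes an adaptor that links eNOS to dynamin and to its internalization from the membrane. It had 40.7, 38.0 and 42.1 CPM in the control libraries and 52.8, 54.5 and 49.9 CPM in the *Atgl* ECKO libraries, with all of the latter higher. It rose by 0.37 on the log2 scale (standard error 0.04, 95% confidence interval 0.28 to 0.46, limma, adjusted p = 1.45e-06), and by 0.60 with the chromosome median removed, since the genes of chromosome 2 had a median of -0.23. *Nosip* (chromosome 7, 45062429 to 45078210, plus strand), which encodes an eNOS-interacting ubiquitin ligase, had 22.9, 23.1 and 24.5 CPM in control and 24.5, 23.6 and 23.4 CPM in *Atgl* ECKO LECs. These ranges overlap, and its log2 fold change was 0.02 with a 95% confidence interval of -0.07 to 0.11 (limma, adjusted p = 0.637). It shares 103 exon bases with *Prrg2* on the opposite strand, which had 10.4 ± 0.287 against 8.05 ± 0.147 CPM (control against *Atgl* ECKO, SD, 3 libraries each).

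Both caveolin genes were higher by nearly the same factor. *Cav1* encodes caveolin-1, the main coat protein of endothelial caveolae, and *Cav2* encodes caveolin-2, which assembles with it. They are neighbours on chromosome 6 on the plus strand, *Cav2* at 17281185 to 17289115 and *Cav1* at 17306335 to 17341452 (GRCm38), 17219 bases apart. The level of *Cav1* was 962, 946 and 955 CPM in the control libraries and 1405, 1429 and 1414 CPM in the *Atgl* ECKO libraries. The coefficient of variation between replicates was 0.859% in control and 0.862% in *Atgl* ECKO LECs, and the genotypes were 443 CPM apart at their nearest. *Cav2* had 193, 184 and 188.9 CPM in control and 294, 296 and 281 CPM in *Atgl* ECKO LECs, again with a wide gap. *Cav1* rose by 0.57 (standard error 0.03, 95% confidence interval 0.51 to 0.63, adjusted p = 1.34e-10) and *Cav2* by 0.62 (standard error 0.03, 95% confidence interval 0.55 to 0.69, adjusted p = 7.96e-11, both from limma). These are rises of 48.4% and 54.0% in mean CPM. The ratio of *Cav2* to *Cav1* within a library was 0.200, 0.195 and 0.198 in control and 0.209, 0.207 and 0.198 in *Atgl* ECKO LECs, which overlap (exact permutation test, two-sided p = 0.2). Genes of chromosome 6 had a median log2 fold change of 0.04.

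The start-site windows of this pair are shown because the pair rose together, and those of *Ddah1* and *Gch1*, picked after their values were seen, because *Ddah1* had the largest fall and *Gch1* opens the synthesis of the cofactor. Each window is the sense strand of the gene from 250 bases before to 50 bases after a RefSeq start (GRCm38.p6). Of the 10 genes 8 matched the RefSeq table, and *Nos3* and *Arg2* did not. Capitals mark the GC box GGGCGG and the CACCC element, each on either strand.
Cav2, chr6:17280935-17281234, plus strand: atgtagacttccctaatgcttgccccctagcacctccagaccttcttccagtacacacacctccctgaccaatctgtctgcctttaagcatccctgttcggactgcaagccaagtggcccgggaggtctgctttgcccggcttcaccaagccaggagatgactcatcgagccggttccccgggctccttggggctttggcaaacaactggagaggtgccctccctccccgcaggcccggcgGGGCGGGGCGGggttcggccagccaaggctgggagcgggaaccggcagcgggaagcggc
Cav1, chr6:17306085-17306384, plus strand: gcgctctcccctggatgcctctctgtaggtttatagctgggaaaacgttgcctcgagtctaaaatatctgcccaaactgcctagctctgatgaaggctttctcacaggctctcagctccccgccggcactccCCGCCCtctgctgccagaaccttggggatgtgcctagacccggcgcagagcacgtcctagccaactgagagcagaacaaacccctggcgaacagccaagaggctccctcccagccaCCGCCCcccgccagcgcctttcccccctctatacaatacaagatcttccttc
Ddah1, chr3:145758442-145758741, plus strand: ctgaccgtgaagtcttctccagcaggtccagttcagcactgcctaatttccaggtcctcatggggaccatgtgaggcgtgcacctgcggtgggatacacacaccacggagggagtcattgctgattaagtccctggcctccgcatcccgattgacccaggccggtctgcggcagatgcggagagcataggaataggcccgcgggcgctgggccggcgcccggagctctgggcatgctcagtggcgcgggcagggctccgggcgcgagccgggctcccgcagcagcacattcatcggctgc
Gch1, chr14:47189364-47189663, minus strand: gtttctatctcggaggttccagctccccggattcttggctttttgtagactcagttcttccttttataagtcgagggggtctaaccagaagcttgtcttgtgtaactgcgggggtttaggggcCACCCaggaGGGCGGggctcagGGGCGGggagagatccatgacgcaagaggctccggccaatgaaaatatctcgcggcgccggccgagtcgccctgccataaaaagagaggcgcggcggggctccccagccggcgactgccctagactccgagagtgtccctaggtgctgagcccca
The *Cav2* window holds 2 GC boxes that share 1 base, starting 9 and 4 bases before the gene start. The *Cav1* window holds 2 on the reverse strand, starting 118 and 2 bases before the start, and *Cav1* has a further RefSeq start downstream, whose window holds no GC box and 1 CACCC element. The *Gch1* window holds 2 GC boxes and 1 CACCC element, and the *Ddah1* window holds neither set of letters. Among the windows not printed, that of *Ddah2*, also lower, holds 2 GC boxes on the forward strand, 1 on the reverse strand and 1 CACCC element. That of *Nostrin*, which was higher, holds 1 CACCC element and no GC box. The *Ass1* window holds 1 of each, and the *Nosip* window 1 GC box and 2 CACCC elements. Of 32851 mouse start-site windows of the same length, 35.7% hold a GC box and 57.5% a CACCC element, so these matches are common and describe the sequence only.

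Of 5 other tested genes of caveolae, 4 were lower while the caveolins were higher, against 36.2% lower and 34.2% higher among all genes tested. The cavins are cytoplasmic coat proteins that shape the caveola together with caveolin-1. *Cavin2* had 741 ± 14.5 against 434.5 ± 14.2 CPM (control against *Atgl* ECKO, SD, 3 libraries each), and fell by 0.77 on the log2 scale (limma, adjusted p = 7.28e-12). *Cavin3* fell by 0.53, from 136 ± 4.35 to 93.9 ± 4.34 CPM (SD, n = 3 each), and *Ehd2*, which encodes an ATPase at the caveolar neck, fell by 0.30, from 694 ± 8.91 to 562.2 ± 13.4 CPM (SD, n = 3 each). *Cavin1*, the cavin needed for caveolae to form, fell by 0.11, from 716 ± 19.3 to 663 ± 20.8 CPM (SD, n = 3 each; limma, adjusted p = 0.00688), a call lost with the chromosome median removed (-0.02, adjusted p = 0.658). *Pacsin2*, which encodes a membrane-bending protein, had a log2 difference of -0.05 (limma, adjusted p = 0.156), which became -0.13 (adjusted p = 0.00126) with its chromosome median removed. Of the 7 tested genes of this list, 2 were thus higher and 4 lower, with a median of -0.11, and the muscle cavin gene *Cavin4* was at 0.1004 and 0.0884 CPM. Summed over the list, caveolar genes took 3553 to 3640 CPM in control and 3569 to 3673 CPM in *Atgl* ECKO LECs, ranges that overlap.

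**Figure D2:**
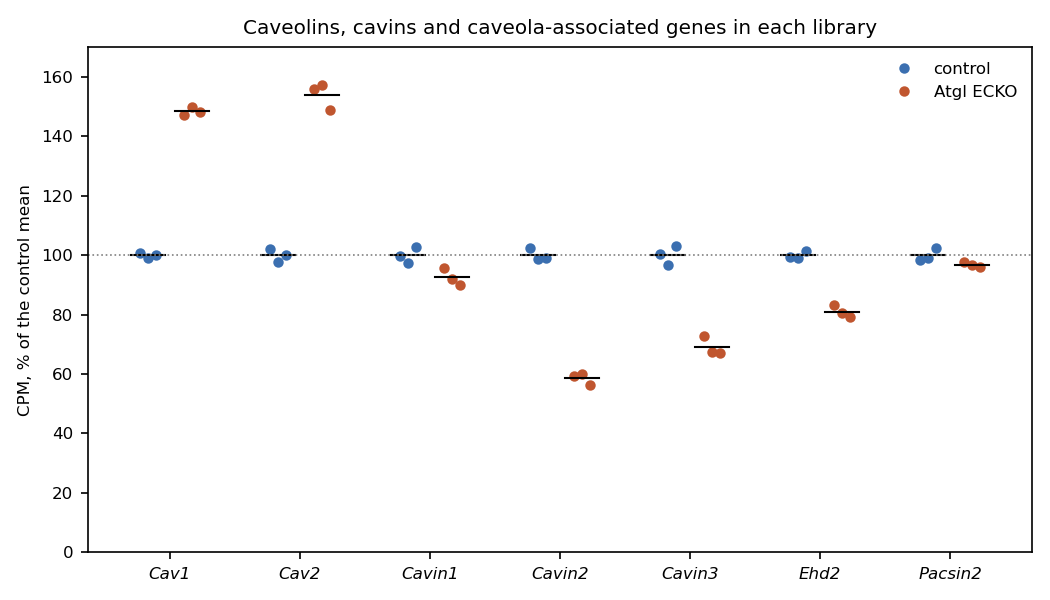
CPM of each library as a percent of the control mean (vertical axis) for 7 tested genes of caveolae, in control (blue) and *Atgl* ECKO (orange) libraries, with a bar at each mean of 3 libraries. *Cav1* and *Cav2* lie above the control libraries, *Cavin1*, *Cavin2*, *Cavin3* and *Ehd2* below them. *Pacsin2*, which did not pass the test, also lies below them, by a small margin.

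Both dimethylarginine hydrolase genes were lower. *Ddah1* (chromosome 3, 145758675 to 145894277, plus strand) had 168, 169.65 and 174 CPM in the control libraries and 69.2, 71.9 and 72.3 CPM in the *Atgl* ECKO libraries, so the genotypes were 95.5 CPM apart at their nearest. It retained 41.7% of the control mean, or -1.25 on the log2 scale (standard error 0.03, 95% confidence interval -1.32 to -1.18, limma, adjusted p = 1.56e-14), and 3.54% of all tested genes had an absolute change at least as large. *Ddah2* (chromosome 17, 35059035 to 35062095, plus strand) had 49.7, 49.9 and 53.8 CPM in control and 38.4, 36.4 and 34.2 CPM in *Atgl* ECKO LECs, again without overlap. It retained 71.1% of the control mean, and its log2 fold change was -0.48 (standard error 0.04, 95% confidence interval -0.58 to -0.39, limma, adjusted p = 1.14e-07). Within a library the ratio of *Ddah2* to *Ddah1* was 0.296, 0.294 and 0.309 in control and 0.555, 0.507 and 0.474 in *Atgl* ECKO LECs, higher in every *Atgl* ECKO library (two-sided exact permutation test with p = 0.1, the smallest possible). Among the arginine methyltransferases that form the methylated arginines, *Prmt1*, the main one, rose by 0.16, from 110.0 ± 3.72 to 123 ± 0.363 CPM (SD, n = 3 each), *Carm1* fell by 0.10 (limma, adjusted p = 0.0169), and *Prmt3* (0.03) and *Prmt6* (-0.04) did not pass the test. The call for *Carm1* was lost in 5 of 16 alternatives: it stood at 0.000793 with the chromosome median removed, and its adjusted p was 0.0718 without control replicate 3, 0.0940 without *Atgl* ECKO replicate 2 and 0.0513 without *Atgl* ECKO replicate 3.

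*Gch1*, which encodes the first enzyme of tetrahydrobiopterin synthesis (chromosome 14, 47153895 to 47189413, minus strand), was higher. It had 25.1, 26.1 and 29.7 CPM in the control libraries and 46.1, 41.5 and 42.3 CPM in the *Atgl* ECKO libraries, which do not overlap. The mean rose by 60.6% and the log2 fold change was 0.67 (standard error 0.06, 95% confidence interval 0.55 to 0.78, limma, adjusted p = 3.26e-08). Genes of chromosome 14 had a median of 0.45, the highest of any chromosome, and with it removed *Gch1* stood at 0.22 (adjusted p = 0.00282), the smallest of the 6 rises. The other genes of the cofactor went both ways. *Pcbd1*, a gene of cofactor recycling, was higher by 0.64, at 0.782 ± 0.133 against 1.78 ± 0.164 CPM (control against *Atgl* ECKO, SD, 3 libraries each), and *Pts*, the next enzyme of the synthesis, by 0.15 (adjusted p = 0.0333). The call for *Pts* was lost in 6 of 16 alternatives, among them without control replicate 2 (0.09, adjusted p = 0.183) and without *Atgl* ECKO replicate 1, 2 or 3 (adjusted p of 0.0621, 0.0740 and 0.0641). *Spr*, which completes the synthesis, fell by 0.18, and *Pcbd2* by 0.43. *Gchfr*, which encodes the feedback regulator of the *Gch1* product, had 6.63 ± 0.401 and 6.45 ± 0.424 CPM (SD, n = 3 each; limma, adjusted p = 0.638), and *Qdpr*, another gene of cofactor recycling, did not pass the test either (adjusted p = 0.0824). With chromosome medians removed both passed as higher, at 0.20 and 0.17. Of the 8 genes 3 were higher and 3 lower, and 5 and 2 with chromosome medians removed.

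**Figure D3:**
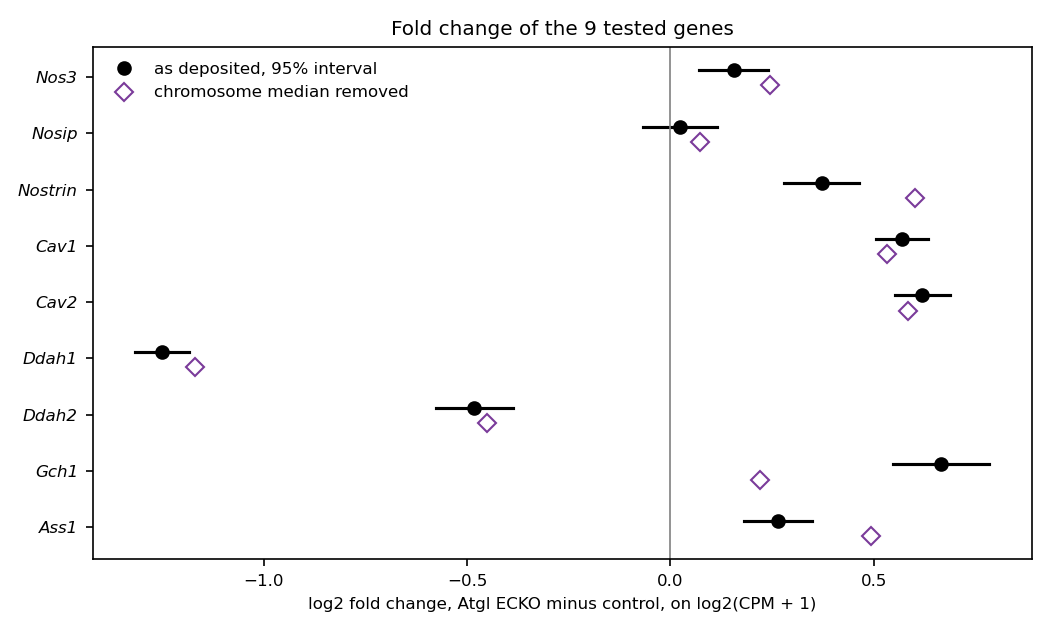
Log2 fold change of the 9 tested genes (horizontal axis, *Atgl* ECKO minus control on log2(CPM + 1)), as deposited with the 95% confidence interval (filled circles) and with the median of each gene's chromosome removed (open diamonds). *Gch1* moves from 0.67 to 0.22 and *Ass1* from 0.26 to 0.49, and no gene changes side.

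*Ass1*, whose product is the rate-limiting step of arginine regeneration from citrulline (chromosome 2, 31470207 to 31520672, plus strand), had 29.4, 30.7 and 31.6 CPM in the control libraries and 37.4, 37.4 and 35.8 CPM in the *Atgl* ECKO libraries. The genotypes were 4.22 CPM apart at their nearest, which is more than the SD of either (1.07 and 0.935 CPM, n = 3 each). It rose by 0.26 on the log2 scale (standard error 0.04, 95% confidence interval 0.18 to 0.35, limma, adjusted p = 2.13e-05), and by 0.49 with the chromosome median removed. *Asl*, the next enzyme of the same cycle, rose by 0.20, from 8.67 ± 0.488 to 10.1 ± 0.214 CPM (SD, n = 3 each). *Slc7a1*, which encodes the main cationic amino acid transporter of endothelium, had 119 ± 1.28 and 118 ± 3.51 CPM (SD, n = 3 each; limma, adjusted p = 0.943). Among the exchangers that can carry arginine, *Slc7a7* was higher by 0.39 and its partner subunit gene *Slc3a2* by 0.20 as deposited. Both directions turned with chromosome medians removed (0.45 for chromosome 14 and 0.40 for chromosome 19), to -0.05 (adjusted p = 0.343) for *Slc7a7* and -0.21 (adjusted p = 3.90e-05) for *Slc3a2*. *Slc7a1* stood at 0.09 (adjusted p = 0.0226) in that fit.

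*Arg2* was barely detected. Its values were 0.102, 0.180 and 0.106 CPM in the control libraries and 0.159, 0.244 and 0.199 CPM in the *Atgl* ECKO libraries, which stand for about 7, 10 and 7 reads and 10, 15 and 13 reads. The ranges overlap (exact permutation test, two-sided p = 0.2), and a difference was not detectable at this depth. Without the filter its log2 fold change was 0.09 (limma, adjusted p = 0.126). *Arg2* (chromosome 12, 79130777 to 79156301, plus strand) shares 285 exon bases with *Vti1b* of the opposite strand. *Vti1b* had 47.2 ± 1.82 against 65.4 ± 0.651 CPM (control against *Atgl* ECKO, SD, 3 libraries each). How many of the reads counted for *Arg2* came from *Vti1b* cannot be told, and it could be any number of them. *Arg1* was below the filter as well, at 0.118 and 0.0158 CPM. Downstream of arginase, *Odc1*, which encodes the first enzyme of polyamine synthesis from ornithine, rose from 406 ± 7.55 to 1082 ± 9.52 CPM (SD, n = 3 each), or 1.41 on the log2 scale (standard error 0.03, limma, adjusted p = 1.78e-15). *Oat*, which directs ornithine to proline and glutamate, fell by 0.47, from 88.6 ± 0.602 to 63.7 ± 1.98 CPM (SD, n = 3 each). Over the 7 tested genes of arginine supply and use, *Odc1* and *Oat* included, 5 were higher and 1 lower with a median of 0.20, and 4 were higher and 2 lower with a median of 0.09 once chromosome medians were removed. Among all genes tested 34.2% were higher and 36.2% lower.

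To set the genes against each other, levels were taken per kilobase of annotated exon (CPM per kb, GENCODE M21), which depends on the gene model. In control LECs *Cav1* stood at 277 ± 2.38, *Nos3* at 81.7 ± 3.03, *Cav2* at 56.5 ± 1.30, *Ddah1* at 42.8 ± 0.835 and *Ddah2* at 32.1 ± 1.45 CPM per kb (SD, n = 3 each). *Nostrin* (21.3), *Ass1* (12.7), *Nosip* (8.38), *Gch1* (4.32) and *Arg2* (0.0905) followed in mean CPM per kb, and no neighbours in this order overlapped. In *Atgl* ECKO LECs the order began with *Cav1* at 411 ± 3.54 CPM per kb (SD, n = 3). *Nos3* at 91.0 ± 5.20 and *Cav2* at 87.1 ± 2.57 CPM per kb (SD, n = 3 each) came next. Their ranges overlapped (86.6 to 96.8 and 84.1 to 88.9 CPM per kb), and the difference between them within a library was not tested. *Ddah1*, at 17.9 ± 0.427 CPM per kb (SD, n = 3), stood below *Nostrin* (27.7) and *Ddah2* (22.8) and above *Ass1* (15.3), while it had been above *Nostrin* and *Ddah2* in control LECs.

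Ratios within a library do not depend on scaling between libraries, and 6 were computed. The ratio of *Cav1* to *Nos3* CPM was 2.85, 2.91 and 2.73 in the control libraries and 3.51, 3.86 and 3.95 in the *Atgl* ECKO libraries. It was higher in every *Atgl* ECKO library, by 0.41 on the log2 scale (two-sided exact permutation test with p = 0.1, the smallest possible, and adjusted p = 0.15 over the 6 ratios). Against endothelial genes the direction for *Nos3* depended on the reference. Its ratio to *Pecam1*, which encodes CD31, was 0.359, 0.362 and 0.375 in control and 0.340, 0.327 and 0.333 in *Atgl* ECKO LECs, all of the latter lower, a difference of -0.13 on the log2 scale. Its ratio to *Cdh5* was 0.171, 0.166 and 0.172 in control and 0.186, 0.176 and 0.175 in *Atgl* ECKO LECs, all of the latter higher, a difference of 0.08 on the log2 scale (both exact permutation tests two-sided, p = 0.1). The ratio of *Ass1* to *Arg2* ranged from 170.2 to 298 in control and from 154 to 236 in *Atgl* ECKO LECs, which overlap (exact permutation test, two-sided p = 0.3) and rest on the few reads of *Arg2*.

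**Figure D4:**
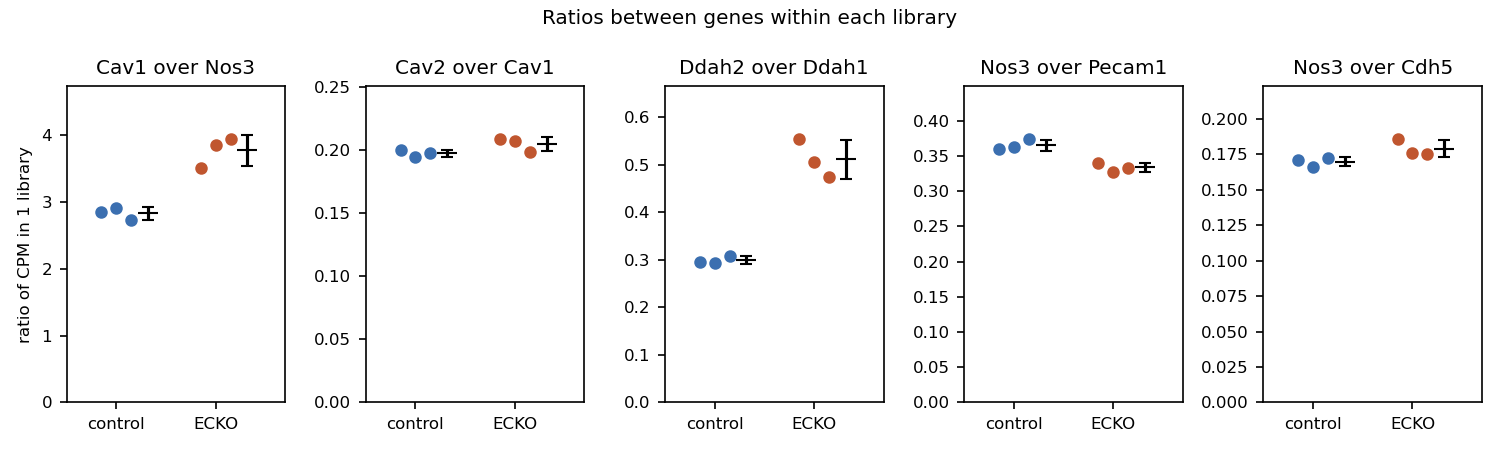
Ratio of the CPM of 2 genes within each library (vertical axes, starting at 0) for 5 of the 6 ratios, control in blue and *Atgl* ECKO in orange, with a bar for the mean and SD of 3 libraries. *Cav1* over *Nos3* and *Ddah2* over *Ddah1* are higher in all *Atgl* ECKO libraries, and *Nos3* is lower relative to *Pecam1* and higher relative to *Cdh5*.

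Other partners of eNOS moved in both directions. Of 15 genes of eNOS partners and traffic 6 were higher and 5 lower, while 4 did not reach the threshold, with a median log2 fold change of 0.02. *Hsp90aa1*, which encodes a form of the chaperone HSP90 that binds eNOS, rose by 0.52, from 529 ± 3.60 to 756 ± 13.3 CPM (SD, n = 3 each), and by 0.15 with its chromosome median removed (0.36 for chromosome 12), while *Hsp90ab1* had a log2 difference of 0.05 (limma, adjusted p = 0.197). Of the N-myristoyltransferase genes, whose products attach a fatty acid to eNOS, *Nmt2* fell by 0.85, from 142 ± 1.57 to 78.6 ± 1.06 CPM (SD, n = 3 each) and *Nmt1* was at -0.05 on that scale (limma, adjusted p = 0.213). Over the 8 lists of the pathway, 45 genes besides the 9 described were tested, of which 16 were higher and 18 lower, while 11 did not reach the threshold, with a median of -0.05, a split close to that of all tested genes.

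**Figure D5:**
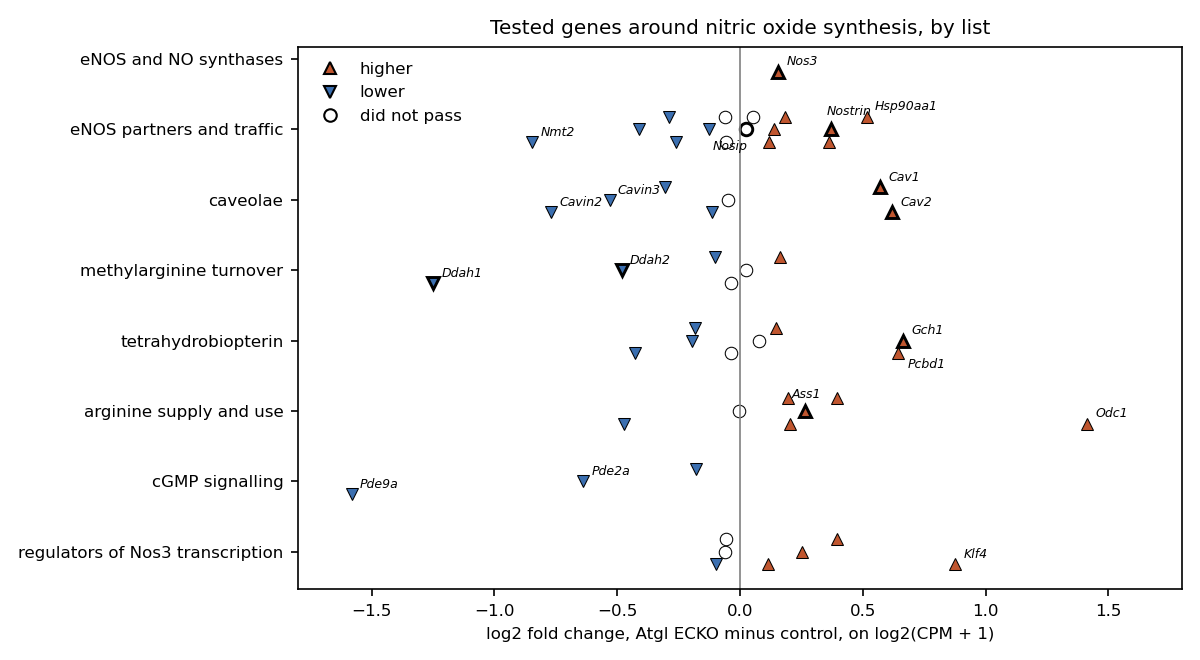
Log2 fold change (horizontal axis, *Atgl* ECKO minus control on log2(CPM + 1)) of the tested genes of 8 lists, with upward triangles for higher, downward for lower and open circles for genes that did not pass the test, and thick outlines for the 9 genes described. *Odc1* at 1.41 and *Ddah1* at -1.25 lie farthest out among genes with more than 10 CPM in each genotype.

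The genes most like *Nos3* and *Cav1* across the 6 libraries were found by the root mean square difference of centred log2(CPM + 1), over 8569 genes whose mean reached 10 CPM. Closest to *Nos3* were *Gmppa* (0.0111), *Csad* (0.0121) and *Ppp1r16b* (0.0136), with log2 fold changes of 0.15, 0.15 and 0.15. Closest to *Cav1* were *Gja1* (0.0104), *Ccnd2* (0.0113) and *Esd* (0.0171), with log2 fold changes of 0.56, 0.56 and 0.55, and *Cav2* came in place 85 at 0.0367. The 6 libraries share 2 genotypes, so this measure mostly ranks genes by the size of the difference between them.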

How the data were processed

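Alignment with STAR, gene quantification with Partek E/M and scaling to CPM in Partek Flow were done by the authors, who deposited CPM with 0.0001 added to every value. Both the labels and the methods give a human build (hg19) although the symbols are those of the mouse, and no tool version was found in these sources. About 72% of values under 1 CPM were whole reads (within 0.02 of a read), so no test on read counts was used. Of 20430 lines, 21 with a date in place of a symbol were left out. Column totals were 816086 to 821591 CPM. The deposited z-scores were not used.

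Genes whose mean reached 1 CPM entered a linear model in limma 3.58.1 under R 4.3.3 (lmFit, then eBayes with a trend on the mean) on log2(CPM + 1), and genotype was the single term. The added 1 CPM understates the change of genes with few reads. Ratios and single values used exact permutation tests (scipy 1.17.1). The procedure was also run on simulated libraries in which few genes differed and no chromosome was shifted. That is unlike these data, so the run gives no error rate for the calls made here. The genes, lists, tests and alternatives were chosen with earlier results of these data known. Named are all 10 genes, *Pnpla2*, from each list at most 5 further genes by adjusted p and any below the filter or the threshold, and the 3 nearest genes to *Nos3* and to *Cav1*. *Pecam1* and *Cdh5* are named as references of the ratios. *Atg9b*, *Gm15587*, *Prrg2* and *Vti1b* fall outside this rule and are named because they overlap one of the 10 genes. Some genes of the lists are counted but not reported by name here. Positions come from GENCODE M21 (GRCm38), matched by symbol, and 99.2% of tested genes had a chromosome.

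Alternatives comprised a pseudocount of 0.1 or 3 CPM, omission of the filter or a stricter one at 5 CPM, median-ratio rescaling, quantile normalization, limma without the trend, unmoderated variances, a replicate block, omission of each library in turn, and removal of chromosome medians (from genes with at least 5 CPM).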

Additional observations from a re-analysis of the deposited data

How the results depend on the processing

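For the 9 tested genes every alternative kept the direction of the log2 fold change, and only 1 call was lost, that of *Nos3* with no moderation of the variances (log2 fold change 0.16, adjusted p = 0.0755). The range for *Nos3* over 16 alternatives was 0.11 to 0.25. Without 1 library, *Nos3* had log2 fold changes of 0.11 (without *Atgl* ECKO replicate 1) to 0.19 and kept its call. *Gch1* ranged from 0.22 to 0.73, *Nostrin* from 0.33 to 0.60 and *Ass1* from 0.24 to 0.49, with the bound farthest from the reported value of each set by the removal of chromosome medians. *Cav1* (0.53 to 0.57), *Cav2* (0.58 to 0.64), *Ddah1* (-1.26 to -1.17) and *Ddah2* (-0.52 to -0.44) moved little. The counts of all genes called stayed within 1.5 times those reported. The difference in the log2 ratio of *Ass1* to *Arg2* was -0.39 and became 0.22 with a pseudocount of 3 CPM, which exceeds every value of *Arg2*.

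Same-numbered libraries had correlations of their deviations from the genotype means of 0.0864, 0.0909 and -0.151 across genes. Libraries of unlike number had correlations from -0.296 to 0.231. With 3 libraries per genotype, these values cannot show whether same-numbered libraries were prepared together. With the replicate number as a block, 4367 genes were higher and 4602 lower, and no call among the 9 genes changed (*Nos3* adjusted p = 0.00109).

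Among the other named genes of the lists, the removal of chromosome medians turned the sign of *Cdh5* (-0.0293), *Slc7a7* (-0.0513), *Slc3a2* (-0.210), *Elf1* (-0.0495), *Ets1* (0.00474) and *Carm1* (0.000793), and of *Nmt1* (0.0396), *Prmt6* (0.0419), *Gchfr* (0.195) and *Slc7a1* (0.0870), which had not passed the test. *Slc7a1* also turned with quantile normalization (0.0151), and without 1 library it ranged from -0.0207 to 0.0209 and *Gchfr* from -0.0773 to 0.00783, with no call.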

Other observations

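Genes downstream of NO, and transcription factors that act on *Nos3*, were looked at beside the genes of NO synthesis. Of 9 genes of cyclic GMP signalling 3 were tested, and all 3 were lower in *Atgl* ECKO LECs, against 36.2% of all genes tested. *Pde2a*, which encodes a phosphodiesterase that cyclic GMP activates, fell by 0.64 on the log2 scale, from 66.2 ± 5.51 to 42.1 ± 2.32 CPM (SD, n = 3 each). *Vasp*, whose product is a substrate of the cyclic GMP-dependent kinase, fell by 0.18, from 195 ± 7.16 to 172 ± 6.66 CPM (SD, n = 3 each). *Pde9a*, which encodes a phosphodiesterase specific for cyclic GMP, had 2.10 ± 0.101 against 0.0372 ± 0.0189 CPM (control against *Atgl* ECKO, SD, 3 libraries each; adjusted p = 1.48e-10 from limma). *Prkg1*, the gene of the kinase itself, was below the filter at 0.177 and 0.189 CPM, and *Gucy1a2*, a subunit gene of the NO receptor guanylate cyclase, at 0.130 and 0.131 CPM. *Gucy1a1* and *Gucy1b1* of the same list were not found among the gene symbols.

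Among 7 transcription factor genes tied to *Nos3* transcription 4 were higher and 1 lower with a median of 0.11, against 34.2% higher and 36.2% lower among all genes tested, and 3 were higher and 2 lower with a median of 0.00474 once chromosome medians were removed. *Klf4* rose by 0.88, from 25.9 ± 0.714 to 48.4 ± 1.35 CPM (SD, n = 3 each), *Elf1* by 0.40, and *Klf2*, the flow-responsive activator of *Nos3*, by 0.25, from 59.4 ± 2.67 to 70.9 ± 4.32 CPM (SD, n = 3 each). *Sp3* rose by 0.11 (adjusted p = 0.00578), and by 0.34 with its chromosome median removed (adjusted p = 1.95e-07, both from limma). *Ets1* fell by 0.10 (adjusted p = 0.00988 from limma), and *Sp1* and *Gata2* did not pass the test. With chromosome medians removed *Elf1* stood at -0.05 (adjusted p = 0.192), *Klf2* at 0.14, *Ets1* at 0.00474 (adjusted p = 0.902), *Sp1* at -0.14 and *Gata2* at -0.09 (adjusted p = 0.00151 and 0.0272), while *Klf4* stood at 0.98.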
